A study of Mus musculus with 6 samples.

Results

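Naris occlusion was examined in the nonneuronal cells of the adult mouse olfactory bulb: red blood cells, the oligodendrocyte lineage, monocytes and macrophages, microglia, endothelial and mural cells, astrocytes, olfactory ensheathing cells (OECs) and mesenchymal cells. Members were all cells that the deposited annotation places in 1 of 22 nonneuronal clusters (of 38 in all) and that came from a control or a naris-occluded library. There were 19754 such cells among 34151 annotated cells of these 4 libraries and 51426 of the series. Control 1 held 5427 of them, control 2 held 4507, occluded 1 held 4215 and occluded 2 held 5605.

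The study sequenced single cells of the bulb (droplet capture of 3′ ends with unique molecular identifiers, UMIs) from 6 libraries, 2 each of control, naris-occluded and odor-trained C57BL/6NJ mice that were 14 weeks old. Each library pooled 3 mice, with males in replicate 1 and females in replicate 2, so that a library is the replicate and sex is the only labelled difference between replicates. Occlusion closed 1 nostril for 6 weeks with a plug of polyethylene tubing and silk suture, and training was a discrimination task on odor pairs over the same time. The labels describe the controls as mice without manipulation, whereas the study's text takes the open side as the control of the occluded side, and in that case libraries with the same number could share mice. The dissected tissue included some olfactory epithelium. The trained libraries are used here only for the estimate of the spread and as values beside a result.

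Odorants act on sensory neurons of the nasal epithelium, whose axons enter the bulb wrapped by OECs, a glial type found along the olfactory nerve and in the outer layer of the bulb. Closing a nostril deprives the bulb of that side of odor-driven activity, and the transcript of S100a5, a calcium-binding protein of sensory neurons, is known to depend on odor stimulation of these cells. Glia and vessels are known to respond to neuronal activity and to injury: microglia and macrophages carry interferon and complement genes, astrocytes carry transporters for glutamate and potassium, and endothelial cells form the barrier between blood and brain.

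The median nonneuronal cell held 1700 and 1669 UMIs in the controls and 2045 and 1529 in the occluded libraries. Of all UMIs of the nonneuronal cells of these libraries, mitochondrial transcripts made up 10.5%, 10.4%, 9.19% and 9.71%. The sums per cluster and library in the 4 libraries compared ran from 82459 UMIs (red blood cells, control 2) to 1609901 UMIs (OEC4), and the smallest sum of a trained library in the fits was 47173 UMIs (Mural1, trained 2), so small clusters show only large differences. Any pair of the libraries shared 28 to 46 cell barcodes among nonneuronal cells (0.643% to 0.910% of the smaller library). Of the markers of the nonneuronal types, all but Cspg4 and Sox10 had their highest level in a cluster of their own class. Cspg4 was higher in Mural2 than in OPC, Sox10 was higher in OPC than in the OECs, and Mural1 held the endothelial genes Cldn5 and Flt1 at or above their level in EC2. Clusters are called here by the names of the deposited annotation. These differ in numbering from the names in the tables of the published work: by their cell numbers per library, MicroG1 and MicroG2, Astro2 and Astro3, OEC2 and OEC5, OEC3 and OEC4, and Mes1 and Mes2 are exchanged there, each pair between its members. In droplet data, transcripts freed from broken cells enter every droplet, so each called gene was set against its level in other cell types: a gene is called flagged below when its mean in the cluster was under 10% of its highest mean in any cluster outside that cluster's class.

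The first comparison asked whether occlusion altered how many cells of each type were recovered. Nonneuronal cells made up 54.3% and 58.4% of annotated cells in the controls and 57.8% and 61.2% in the occluded libraries, a difference of 3.17 percentage points (two-sided exact permutation test, p = 0.667, where 2 libraries against 2 allow no p below 0.333). None of the 22 clusters passed edgeR's quasi-likelihood test for its share of nonneuronal cells (adjusted p under 0.05 in 0% of clusters). The control and occluded libraries did not overlap in 11 clusters (50%), so a lack of overlap was as common as overlap. The adjusted p was 0.415 for Astro3 and between 0.692 and 0.794 for the other clusters.

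Astro3 had the smallest unadjusted p (0.0189). It made up 5.92% and 6.17% of nonneuronal cells in the controls and 5.08% and 3.57% in the occluded libraries, a log2 ratio of -0.49 ± 0.20 (standard error). Its cells were shallow and rich in mitochondrial transcripts: their median was 734 and 682 UMIs in the controls and 852 and 632.5 in the occluded libraries, with mitochondrial shares of 23.8%, 24.8%, 21.97% and 20.2%. EC2, a second shallow cluster, made up 4.39% and 4.59% in the controls and 2.85% and 3.85% in the occluded libraries (-0.42 ± 0.25). MicroG2 stood at 7.56% and 7.90% against 6.03% and 6.89% (-0.26 ± 0.18). The part of cell quality in these shares was not tested.

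OECs, the largest class, held 39.5% and 39.3% of nonneuronal cells in the controls and 44.4% and 40.7% in the occluded libraries, 2 ranges that did not overlap. Within the class OEC4 stood at 10.8% and 11.0% in the controls against 13.6% and 12.5% in the occluded libraries, a log2 ratio of 0.26 ± 0.15. OEC1 stood at 8.77% and 7.46% against 9.68% and 9.33%, and OEC5 at 2.99% and 2.64% against 3.20% and 4.09%. OEC2 and OEC3 overlapped between the groups. Mesenchymal cells held 2.84% and 2.46% in the controls and 3.89% and 3.02% in the occluded libraries. The endothelial, mural, microglial, astrocyte, oligodendrocyte and monocyte and macrophage classes overlapped between the groups. Shares of classes were not tested. The log2 ratios of the clusters had standard errors of 0.15 to 0.51.

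**Figure D1:**
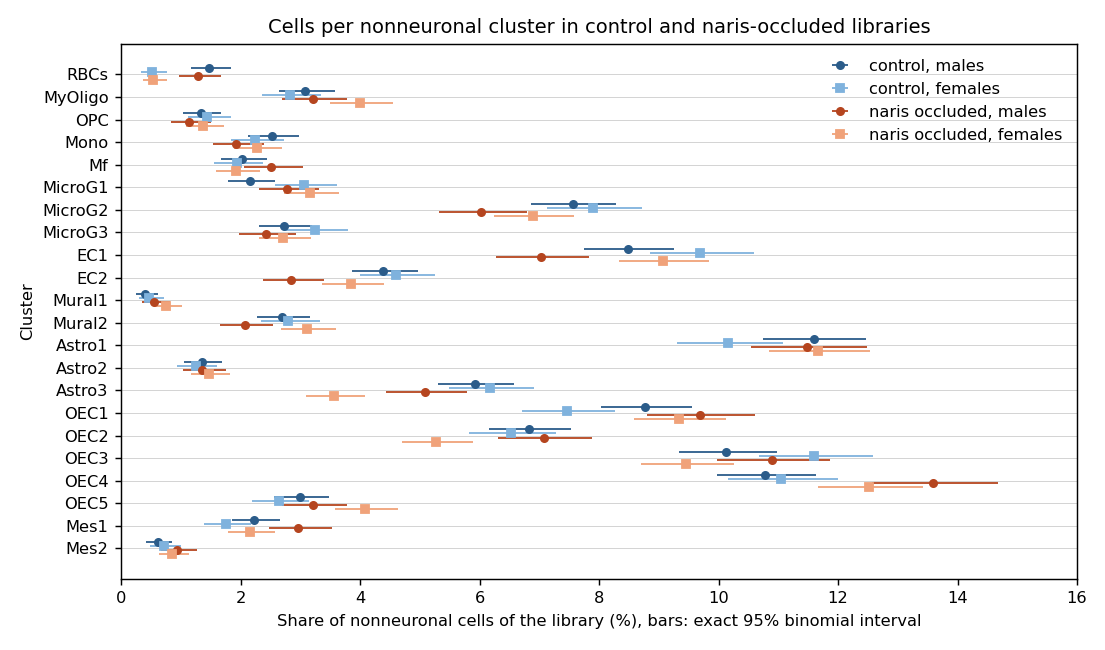
Share of nonneuronal cells (%, horizontal axis) in each of 22 clusters (vertical axis) for the 2 control and the 2 naris-occluded libraries; points are libraries and bars are exact 95% binomial intervals, which cover counting error only. In 11 clusters both occluded libraries lie above, or both below, the 2 controls, and no cluster passed the test.

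For gene levels, UMIs were summed per cluster and library and tested with edgeR cluster by cluster. Values per gene are CPM, the UMIs of a gene scaled to a common total of that sum with TMM factors, and fold changes are log2 values of occluded over control with their standard error. Levels summed over a list or over several clusters, and levels in neuronal clusters, are plain CPM without these factors. A higher CPM in a sum can come from more RNA of the gene per cell or from more cells that hold it, and these cannot be told apart in the sums. The clusters were drawn from the same 4 libraries, so a difference seen in several clusters is not several independent observations.

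Of 110806 gene and cluster tests, 47 passed at an adjusted p under 0.05 (0.0424%), 19 higher (0.0171%) and 28 lower (0.0253%) after occlusion, and 4.47% had an unadjusted p under 0.05. The 47 calls concerned 22 genes. S100a5 accounted for 20, hemoglobin genes for 8 and all other genes for 19. Of the 47, 38 were flagged for free RNA. Mono and Mes2 had no call, and S100a5 was the only called gene in 11 clusters. The control and occluded libraries did not overlap in 44 of the calls and in 33.6% of all 110806 tests, and in 3 of the calls, all hemoglobin, males and females differed in opposite directions. A further test asked whether the difference in a cluster departed from that in all other nonneuronal cells of the same libraries, which removes what all cells of a library share; it called 47 gene and cluster pairs (0.0424%), among them 13 of the 47 above.

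S100a5 was lower after occlusion in every nonneuronal cluster. Its log2 fold change ran from -2.76 in Mural1 to -1.03 in Mono with a median of -1.76, the unadjusted p was under 0.05 in 22 of 22 clusters, and 20 passed adjustment. In OEC4, the largest sum, it stood at 546.9 and 620.2 CPM in the controls and at 193.1 and 164.4 CPM in the occluded libraries (-1.70 ± 0.17, adjusted p = 6.5e-08). In Astro2 it stood at 976.6 and 1295 CPM against 314.9 and 129.2 CPM (-2.35 ± 0.28, adjusted p = 3.12e-10). Both occluded libraries were below both controls in every cluster, and occluded 2, the female pool, was the lower of them except in Mono and OEC5. Even red blood cells, which carry little but hemoglobin transcripts, had S100a5 at 353.5 and 452.4 CPM against 90.1 and 35.0 CPM (-2.50 ± 0.47, adjusted p = 0.00486). The call was lost on leaving out occluded 2 in Astro1 (-1.28), EC1 (-1.19) and Mural1 (-2.31), control 1 in EC1 (-1.42) and OEC5 (-1.57), or control 2 in red blood cells (-2.40), with the direction kept.

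The level of S100a5 in these clusters was a low share of that in a sensory neuron cluster. Across the 38 clusters it was highest in the neuronal cluster N5, which was also the highest in Gng13 and Omp, a G protein subunit of olfactory transduction and the olfactory marker protein. N5 averaged 19470 CPM, and S100a5 in the nonneuronal clusters was between 0.95% of this (MyOligo) and 7.0% (MicroG3), so every one of its calls was flagged. Per cell, the median over the 22 clusters was 1.27 and 1.23 UMIs per cell in the controls and 0.549 and 0.196 in the occluded libraries, with a range over clusters of 0.946 to 2.45 in control 1 and of 0.133 to 0.457 in occluded 2. The values of 7.0% and 2.45 belong to MicroG3, where 1 cell held 135 of the 363 S100a5 UMIs of control 1. Without that cell the plain CPM there was 1685. Neurons outside N5 held 1.57 and 1.63 UMIs per cell in the controls and 0.728 and 0.238 in the occluded libraries. No cluster departed from the other nonneuronal cells in its S100a5 difference (adjusted p from 0.61 to 1.00 for the difference between the 2).

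**Figure D2:**
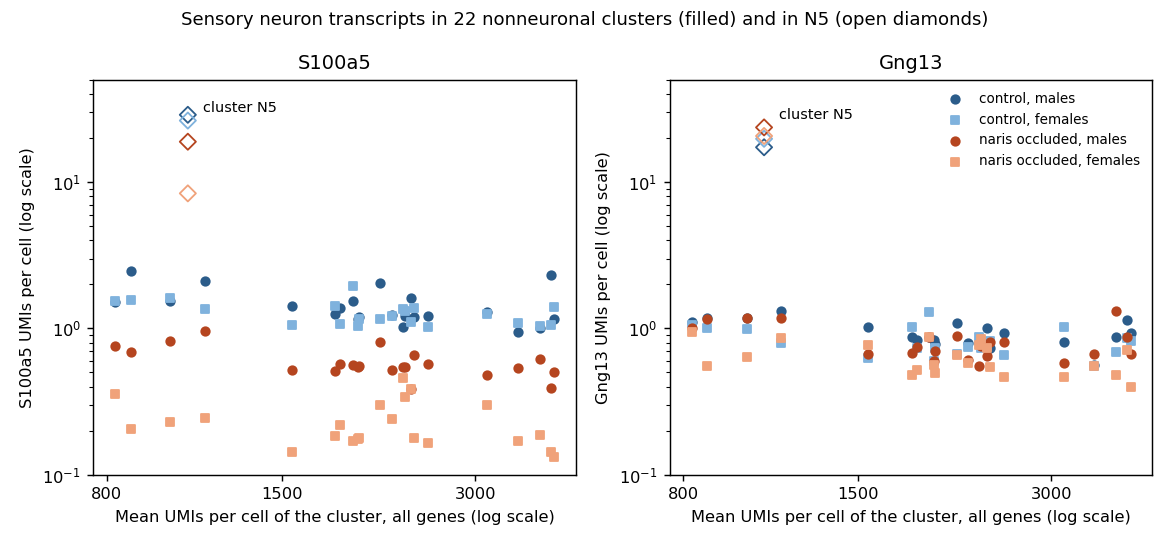
UMIs per cell of S100a5 (left) and Gng13 (right) against the mean UMIs per cell of all genes, both axes on a log scale; filled points are the 22 nonneuronal clusters in each control and naris-occluded library and open diamonds are cluster N5. The S100a5 medians over nonneuronal clusters are 1.27 and 1.23 in the controls and 0.549 and 0.196 in the occluded libraries, and the Gng13 medians are 0.878 and 0.777 against 0.750 and 0.572, a smaller separation.

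In N5 itself S100a5 stood at 27960 and 25400 CPM in the controls and at 14670 and 9865 CPM in the occluded libraries, whereas Gng13 stood at 16770 and 19060 against 18360 and 24340 CPM. S100a5 UMIs per Gng13 UMI were 1.67 and 1.33 in N5 of the controls and 0.799 and 0.405 in N5 of the occluded libraries. In the nonneuronal cells the same ratio was 1.52 and 1.61 in the controls and 0.759 and 0.376 in the occluded libraries. In both places the 2 occluded libraries lay below the 2 controls, and occluded 2 was the lowest. N5 made up 2.45% and 2.39% of the cells of the controls and 2.54% and 1.16% of those of the occluded libraries, so that occluded 2 also held a smaller share of N5 cells.

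**Figure D3:**
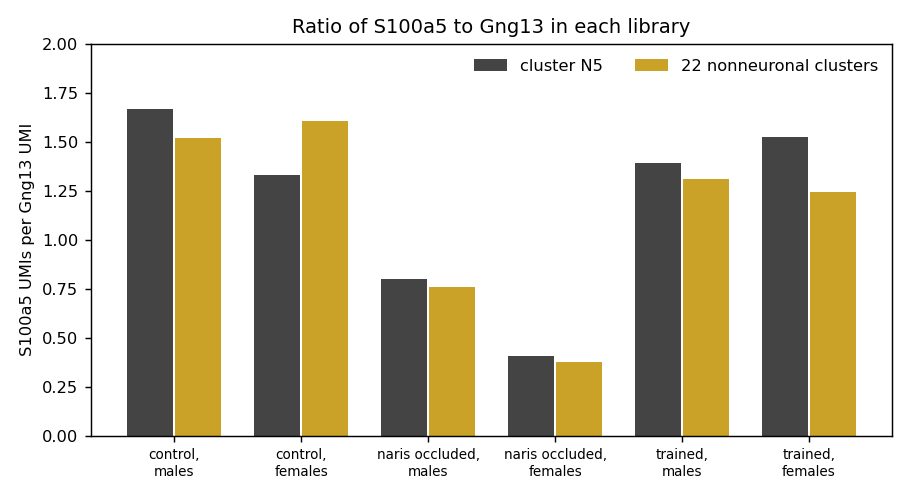
S100a5 UMIs per Gng13 UMI (vertical axis, from 0) in each of the 6 libraries, in cluster N5 (dark bars) and in the 22 nonneuronal clusters together (light bars); bars are single values per library. Both ratios are above 1.2 in the control and trained libraries and below 0.8 in the naris-occluded libraries.

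Gng13 differed less. Its CPM over the nonneuronal clusters was 465.6 and 419.9 in the controls and 341.6 and 365.7 in the occluded libraries; it was lower in 20 of 22 clusters with a median log2 fold change of -0.30, and none passed adjustment. Transcripts of bulb interneurons also had mostly negative differences. Pcp4, a calmodulin regulator of these neurons, stood at 458.6 and 375.3 CPM over the nonneuronal clusters in the controls against 334.8 and 253.3 CPM, with a negative difference in 22 of 22 clusters and an unadjusted p under 0.05 in 12. Gad1, which makes GABA, stood at 164.0 and 138.4 CPM against 117.8 and 88.8 CPM, and Meis2, a transcription factor of these cells, at 128.0 and 121.9 against 102.7 and 93.5 CPM. Over the whole list of interneuron transcripts, 32 of 133 tests were lower and 1 higher at an unadjusted p under 0.05, none was called, and the median was -0.36 against 0.00 over all genes. Dcx, a gene of immature neurons, ran the other way, with a median of 0.23 over 11 tests. Transcripts of oligodendrocytes outside MyOligo and OPC had a median of 0.015 over 68 tests, and those of OECs outside the OEC clusters a median of 0.056 over 63, with 2 called.

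Hemoglobin genes gave 8 calls outside red blood cells, all higher after occlusion and all flagged. In EC2 the beta globin gene Hbb-bs stood at 169.7 and 71.4 CPM in the controls and at 186.6 and 2213 CPM in the occluded libraries (3.29 ± 0.44, adjusted p = 4e-06). In MyOligo it stood at 114.2 and 46.9 against 115.3 and 1531 CPM (3.30 ± 0.58), and in MicroG2 at 129.1 and 42.6 against 120.9 and 728.7 CPM (2.29 ± 0.42). Only occluded 2 was high. A single cell of that library held 1454 of the 1513 hemoglobin UMIs of MyOligo (96.1%), another 567 of 693 in EC2 and another 663 of 771 in MicroG2. Leaving out occluded 2 gave log2 fold changes for Hbb-bs of 0.57 in EC2, 0.46 in MyOligo and 0.46 in MicroG2, none called, and leaving out all cells outside the red blood cells with at least 20 hemoglobin UMIs (8, 3, 5 and 9 cells in the 4 libraries) gave 0.38, 0.14 and 0.34, none called. Hba-a1 and Hba-a2, near-identical copies whose counts may be split between them, gave the other 5 calls. Red blood cells themselves had no hemoglobin call, and Hbb-bs there had a log2 fold change of -0.52 ± 0.52.

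Among immune cells, 2 genes besides S100a5 fell in MicroG2, the largest microglial cluster (5 calls, 0.0658% of the genes tested there). The chemokine gene Ccl12 stood at 360.2 and 242.1 CPM in the controls and at 108.8 and 122.8 CPM in the occluded libraries (-1.38 ± 0.21, adjusted p = 0.00121), from 279 and 165 UMIs against 63 and 77. It was the only called gene outside S100a5 that DESeq2 called as well. The trained libraries lay between, at 201.9 and 131.8 CPM. MicroG1 had a like difference short of the threshold, with 1091 and 426.9 against 277.8 and 319.9 CPM (-1.33 ± 0.27, adjusted p = 0.127). In MicroG3 the groups overlapped, at 383.8 and 157.7 against 82.1 and 269.1 CPM (-0.60 ± 0.44). Without control 1, which was the highest library in all 3 clusters, the MicroG2 difference was -1.06 and was not called. Ccl12 was flagged because Mf, the macrophage cluster, held it at far higher levels, 2923 and 1654 CPM in the controls and 3310 and 2208 CPM in the occluded libraries (0.26 on the log2 scale, not called). Border macrophage genes in MicroG2 summed to 616.4 and 664.8 CPM in the controls and 779.9 and 594.8 CPM in the occluded libraries, and 2 of the 14 had no UMI. Of the markers that define Mf, Mrc1 had 3, 6, 4 and 7 UMIs in MicroG2, Pf4 had 3, 2, 4 and 4, and Cd163 had 0, 0, 0 and 1. The part of free RNA from macrophages in the Ccl12 call was not tested.

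The second gene was Ifit3, an interferon-induced antiviral protein, at 68.4 and 32.3 CPM against 8.63 and 11.2 CPM (-2.34 ± 0.44, adjusted p = 0.0145), from 53 and 22 against 5 and 7 UMIs. The trained libraries stood at 9.51 and 17.2 CPM, below both controls. It was flagged (8.57% of its level in OEC2), and without control 1 the difference was -1.68 and was not called. The interferon list had mostly negative values in 2 of the 3 microglial clusters. In MicroG2, 5 of 13 tested members were lower at an unadjusted p under 0.05 with a median of -0.51, and in MicroG1 6 of 12 with a median of -0.71 and no call. In MicroG3 none of 6 was lower and 1 was higher, with a median of -0.15. The medians moved with the library left out. Without control 1 they were -0.13 in MicroG2 and -0.16 in MicroG1. Without control 2 they were -0.84 and -1.15, without occluded 1 they were -0.35 and -0.72, and without occluded 2 they were -0.95 and -0.97. Summed over the microglia, the 16 interferon genes made up 2593 and 2232 CPM in the controls, 1974 and 2042 CPM in the occluded libraries and 1870 and 2330 CPM in the trained ones. In MicroG1 the smallest p belonged to Ifi27l2a, at 210.7 and 332.7 against 119.5 and 152.6 CPM (-1.01 ± 0.25, adjusted p = 0.299). Over the 9 clusters to which the list was assigned, OEC2 not among them, 15 of 113 tests were lower and 2 higher at an unadjusted p under 0.05, with a median of -0.20. Of the medians of these 9 clusters, which were all below 0, 5 turned positive without control 1 and 3 without occluded 1.

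The genes that define resting and activated microglia showed no call of their own. Of the homeostatic list, which holds P2ry12, Tmem119 and Siglech, 0 of 47 tests had an unadjusted p under 0.05, and the median was 0.06. Of the activation list, 1 was higher and 5 were lower among 50. The smallest p belonged to Apoe, a lipid carrier, in MicroG3, at 18350 and 16440 CPM in the controls and 11650 and 12960 CPM in the occluded libraries (-0.50 ± 0.11, adjusted p = 0.144). Cd68, a lysosomal protein of phagocytes, stood at 428.4 and 463.4 against 738.6 and 672.7 CPM there (0.66 ± 0.23, adjusted p = 0.769). MicroG3 is a shallow cluster whose median cell held 777 and 736 UMIs in the controls and 841.5 and 662.5 in the occluded libraries. Complement genes in microglia, Mf and Mono had a median of 0.07 over 41 tests and antigen presentation genes there a median of -0.03 over 63, without a call. In EC1 and EC2 antigen presentation genes had a median of 0.09 over 17 tests, also without a call.

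In Mf the calcium-binding protein gene Calb2 was called higher, at 86.3 and 101.3 CPM in the controls and 347.9 and 348.2 CPM in the occluded libraries (1.90 ± 0.34, adjusted p = 0.0166). Calb2 is a gene of bulb interneurons and was flagged at 1.67% of its level in N13. Its difference was positive in 16 of 20 clusters, with an unadjusted p under 0.05 in 7 of them and a median of 0.44. Of its 66 UMIs in occluded 1, 43 were in 1 cell, and of its 56 in occluded 2, 30 were in 1 cell; without the cell with most UMIs in each library the plain CPM were 64.3 and 71.7 against 105.6 and 136.4. Of 5 transcripts of the interneuron list that could be tested in Mf, 3 were lower at an unadjusted p under 0.05, 1 had a positive difference and none was called, and the whole list had a sum of 1194 and 1154 CPM in the controls and 776.2 and 659.1 CPM in the occluded libraries. Without control 1 the call was lost (1.77). The macrophage genes Pf4 and Cbr2 stood at 5637 and 5663 against 6384 and 6567 CPM and at 548.9 and 666.8 against 738.0 and 827.1 CPM, both with an adjusted p of 0.988.

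The OECs had 5 called genes besides S100a5, 3 lower and 2 higher after occlusion. In OEC2 (4 calls, 0.0515% of the genes tested), 3 genes of interferon-inducible GTPases, which act in defense against pathogens inside cells, were lower. Igtp stood at 129.2 and 131.4 CPM in the controls and at 28.4 and 60.8 CPM in the occluded libraries (-1.63 ± 0.26, adjusted p = 0.0028), from 108 and 88 against 24 and 35 UMIs. Iigp1 stood at 117.3 and 153.8 against 4.72 and 46.9 CPM (-2.58 ± 0.47, adjusted p = 0.0193), and Gm4951 at 102.9 and 65.7 against 3.54 and 38.2 CPM (-2.24 ± 0.44, adjusted p = 0.046). None was flagged, since no other class held them at much higher levels. Both occluded libraries lay below both controls for each of the 3 genes, but a lack of overlap was found in 44 of all 47 calls and in 33.6% of all tests. The trained libraries were low as well, with Igtp at 35.2 and 63.6 CPM and Iigp1 at 1.76 and 54.5 CPM. The difference in OEC2 also departed from that in the other nonneuronal cells, by -1.49 for Igtp, -2.38 for Iigp1 and -1.97 for Gm4951. Leaving out occluded 1 ended the call of Igtp (-1.10) and of Gm4951 (-1.16), and leaving out control 1 that of Gm4951 (-1.86).

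On means over the 4 libraries, these 3 genes are also among those that set OEC2 apart from the other OEC clusters. Ranked by fold over the mean of the other 4 OEC clusters, Iigp1 was at rank 2 of 18560 genes, Gm4951 at rank 4 and Igtp at rank 15, and 8 of the 16 genes of the interferon list were within the first 30. In both controls and in occluded 2, each of the 3 genes was higher in OEC2 than in the other 4 OEC clusters together. In occluded 1 they were close, with Igtp at 27.7 against 23.1 plain CPM. Iigp1 stood there at 4.62 against 3.09 and Gm4951 at 3.46 against 3.94. The clusters were made from all 6 libraries with these genes included, so which cells entered OEC2 and how high these genes were in it cannot be told apart. Summed over all OECs, whatever their cluster, Igtp stood at 56.7 and 46.3 CPM in the controls and at 24.0 and 33.2 CPM in the occluded libraries. Iigp1 stood at 33.9 and 38.8 against 3.39 and 15.5 CPM, and Gm4951 at 26.4 and 20.0 against 3.84 and 13.8 CPM. Each of these sums had both occluded libraries below both controls, as had 14.3% of the genes tested in OEC2. OEC2 cells are part of the sums, and for Iigp1 in control 1 they held 98 UMIs against 43 in the other OEC clusters. In the other 4 OEC clusters together the groups overlapped for each gene, with Igtp at 38.8 and 25.2 against 23.1 and 28.8 CPM, Iigp1 at 13.04 and 10.2 against 3.09 and 10.4 CPM, and Gm4951 at 7.28 and 8.66 against 3.94 and 9.80 CPM.

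The wider interferon list in OEC2 gave a less even picture, since control 1 was high and the rest were not. Of 16 members tested, 14 were lower at an unadjusted p under 0.05 and none was called, with a median of -1.07 against 0.01 for all genes of the cluster. Summed, the list stood at 8412 CPM in control 1, 4756 in control 2, 3336 in occluded 1 and 5461 in occluded 2, so that the female pools ran opposite to the male ones. The median of the members tested was -0.41 without control 1 and -0.45 without occluded 1. It was -1.59 without control 2 and -1.72 without occluded 2. Ifit3 in OEC2, for instance, stood at 663.4 plain CPM in control 1, 285.6 in control 2, 120.0 in occluded 1 and 285.9 in occluded 2. Of the antigen presentation genes, 6 of 10 tested members were lower there at an unadjusted p under 0.05, with a median of -0.67 and no call. The median of these genes was -0.31 without control 1, -0.34 without occluded 1, -0.90 without control 2 and -0.88 without occluded 2. Their sum was 1996 and 1737 CPM in the controls, 1277 and 1332 CPM in the occluded libraries and 1117 and 1953 CPM in the trained ones.

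In OEC3, Rnaset2a, a ribonuclease gene, rose from 48.6 and 48.9 CPM to 96.0 and 138.2 CPM (1.26 ± 0.26, adjusted p = 0.037). Its difference was positive in 16 of 18 clusters, with an unadjusted p under 0.05 in 5 of them, and was largest in EC2 (1.33). It has a near-identical copy, Rnaset2b, so that its counts are uncertain, and the call was lost without control 1 (1.26), control 2 (1.26) or occluded 2 (0.98). In OEC4, Cldn5, a tight junction protein of endothelial cells, stood at 121.8 and 100.4 CPM in the controls and at 201.2 and 182.2 CPM in the occluded libraries (0.78 ± 0.14, adjusted p = 0.0115). It was found in 79 of 585 and 63 of 498 cells of the controls and in 133 of 573 and 135 of 702 cells of the occluded libraries. It was flagged at 1.99% of its level in EC1. After subtracting 10% free RNA its log2 fold change in edgeR was 2.35 (adjusted p = 0.00036). Other flagged genes moved unevenly with this subtraction: Calb2 in Mf went from 1.90 to 4.28 and S100a5 in OEC4 from -1.70 to -1.69. Of the 47 calls, 22 were kept after it. How far the subtraction itself enlarged the Cldn5 value was not tested. DESeq2 did not call Cldn5 in OEC4 (adjusted p = 0.676). Its difference departed from that in the other nonneuronal cells by 0.77 (adjusted p = 0.000205), but those cells include the endothelial clusters that hold the gene at high levels. Other endothelial transcripts in OEC4 ranged widely. Of the markers that define endothelium, Slco1c1 had 6, 5, 7 and 9 UMIs and Flt1 6, 8, 7 and 14 UMIs in the 4 libraries. Pecam1, an adhesion molecule, had 65, 67, 77 and 123 UMIs, Abcb1a, an efflux pump, 132, 106, 168 and 183, and Bsg, a glycoprotein found in many cell types, 1248, 1114, 1771 and 1667. These are counts not scaled for depth, out of 1320037, 1090398, 1609901 and 1477169 UMIs of OEC4. Both occluded sums were larger, so part of any rise in these counts is depth. Of 19 genes of vessel growth and adhesion, 3 had no UMI. The summed barrier list, Cldn5 included, stood at 1920 and 2019 against 2220 and 2284 CPM, with Cldn5 the only member at an unadjusted p under 0.05. The Cldn5 call was lost without control 2 (0.67) or occluded 1 (0.71).

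Genes that mark OECs gave no call in the OEC clusters. Of the 20 identity genes, which include Sox10, Frzb, Npy and Fabp7, 2 of 86 tests were higher and 2 lower at an unadjusted p under 0.05, and the median was 0.04. S100b, a calcium-binding protein of glia, stood at 1398 and 1379 CPM against 1152 and 1032 CPM in OEC5 (-0.35 ± 0.15), Mybpc1 at 165.4 and 189.4 against 163.8 and 119.2 CPM in OEC4 and Aldh1a1, an enzyme that makes retinoic acid, at 55.0 and 49.3 against 76.8 and 71.2 CPM in OEC2. None of the 3 was called.

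In endothelial cells a cell cycle gene fell. In EC1 (2 calls, 0.0231% of the genes tested), Ccnd1, the cyclin D1 gene of entry into the cell cycle, stood at 83.3 and 66.4 CPM in the controls and at 29.7 and 6.51 CPM in the occluded libraries (-2.14 ± 0.36, adjusted p = 0.021). These values came from 74 and 55 UMIs in 52 and 39 cells of the controls and 18 and 5 UMIs in 16 and 5 cells of the occluded libraries. The trained libraries stood at 46.6 and 41.9 CPM, between the groups. Ccnd1 was not flagged, at 13.6% of its level in OPC, where it stood at 336.9 and 369.5 against 480.1 and 352.6 CPM. The EC1 difference departed from that in the other nonneuronal cells by -2.09 (adjusted p = 0.0303). Other vascular clusters had values in the same direction without a call: in EC2 Ccnd1 stood at 91.0 and 76.9 against 33.3 and 34.3 CPM (-1.31 ± 0.50) and in Mural1 at 152.8 and 185.3 against 49.0 and 95.9 CPM. The trained libraries stood at 27.05 and 25.22 CPM in EC2, below both occluded libraries, and at 106 and 193.6 CPM in Mural1. Without control 1 the EC1 difference was -1.97 and without occluded 2 it was -1.33, both no longer called.

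Among genes of vessel growth in EC1, 4 of 17 tested members were lower and none higher at an unadjusted p under 0.05, without a call and with a median of -0.03. Angpt2, a ligand that loosens vessel walls during growth, stood at 27.02 and 24.2 CPM in the controls and 6.60 and 5.21 CPM in the occluded libraries (-2.11 ± 0.47, adjusted p = 0.256), from 24 and 20 against 4 and 4 UMIs, with 27.5 and 24.8 CPM in the trained libraries; 12 of the 24 and 9 of the 20 UMIs of the controls were in 1 cell each. Apln, a peptide of sprouting vessel tips, had 62 and 11 UMIs against 2 and 0, but 35 of the 62 were in 1 cell (adjusted p = 0.239). In EC2 Kdr, the main receptor for vascular endothelial growth factor, stood at 281.4 and 280.2 against 133.3 and 176.2 CPM (-0.84 ± 0.28, adjusted p = 0.404). It was the only lower one of 12 tested members there at an unadjusted p under 0.05, and Klf2, a transcription factor that responds to blood flow, was the only higher one, at 475.9 and 368.2 against 440.0 and 763.7 CPM (0.52 ± 0.22, adjusted p = 0.696). The median in EC2 was -0.22. Barrier genes, such as Cldn5 and Slco1c1, had a median of 0.03 over 36 tests with 2 higher and 1 lower at an unadjusted p under 0.05.

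EC2 had the most calls of any cluster, 10 of 4085 genes (0.245%), of which 9 were higher. Its cells were shallow, with medians of 808.5 and 713 UMIs in the controls and 870.5 and 714 in the occluded libraries, and 6 of the 9 were genes of red blood cells, microglia or immediate early genes flagged for free RNA. The 3 without a flag are genes of OECs. Fabp7, a fatty acid binding protein of glia, stood at 3426 and 2868 CPM against 5000 and 5703 CPM (0.77 ± 0.16, adjusted p = 0.00971). Npy, neuropeptide Y, stood at 2938 and 2736 against 5439 and 3887 CPM (0.71 ± 0.15, adjusted p = 0.012), and Edil3, an integrin ligand of the matrix, at 86.9 and 98.9 against 266.6 and 195.8 CPM (1.30 ± 0.31, adjusted p = 0.0423). They missed the flag, at 23.1%, 15.7% and 19.5% of their levels in OEC1, OEC4 and OEC1. The OEC identity list, which includes Fabp7 and Npy, ran the same way in EC2: 7 of its 14 tested members were higher at an unadjusted p under 0.05, the median was 0.42 against -0.01 for all genes of EC2, and the summed level of all 20 was 11870 and 11040 CPM in the controls against 18020 and 15310 CPM in the occluded libraries. Of these sums Fabp7 held 2996 and 2476 against 4371 and 5055 CPM, and Npy held 2569 and 2362 against 4755 and 3446 CPM. The summed level of the barrier genes in EC2 was 24040 and 23770 against 22580 and 27560 CPM.

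Of the flagged genes in EC2, Tyrobp, an adaptor protein of microglia, stood at 41.4 and 33.0 CPM against 153.3 and 132.2 CPM (1.89 ± 0.41) and C1qa, a complement subunit, at 82.8 and 82.4 against 306.6 and 156.6 CPM (1.44 ± 0.33). They rested on 10 and 6 against 23 and 27 UMIs and on 20 and 15 against 46 and 32 UMIs, with 17 of the 46 in 1 cell. Their rise was not confined to EC2. The difference was positive in 14 of 18 clusters for Tyrobp and in 16 of 19 for C1qa, with an unadjusted p under 0.05 in 4 and 5 of them. For C1qa it was largest in Mes2 (2.29). C1qc, also on the complement list, was higher at an unadjusted p under 0.05 in 9 of 19 clusters and lower in 0. The markers that define microglia had few UMIs in EC2, 4, 3, 3 and 4 for P2ry12 and 3, 2, 2 and 2 for Tmem119. The complement list, C1qa included, had 4 of 5 tested members higher there at an unadjusted p under 0.05, a median of 0.95 and a sum of 336.5 and 403.1 against 868.3 and 507.7 CPM, and C1qc had 9 and 13 against 29 and 23 UMIs. Fos, an immediate early transcription factor, stood at 0 and 27.5 against 80.0 and 151.8 CPM, from 0 and 5 against 12 and 31 UMIs, with 8 of the 12 in 1 cell. Each of the EC2 calls other than S100a5 was lost on leaving out at least 1 library: C1qa (0.92 to 1.45), Edil3 (1.09 to 1.38), Npy (0.46 to 0.77) and Tyrobp (1.75 to 2.08) without control 1, control 2 or occluded 1, Fabp7 without control 2 (0.64) or occluded 2 (0.67), and Fos without control 1 (2.10) or occluded 2 (2.64). The part of free RNA and of mixed droplets in the EC2 calls was not tested.

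**Figure D4:**
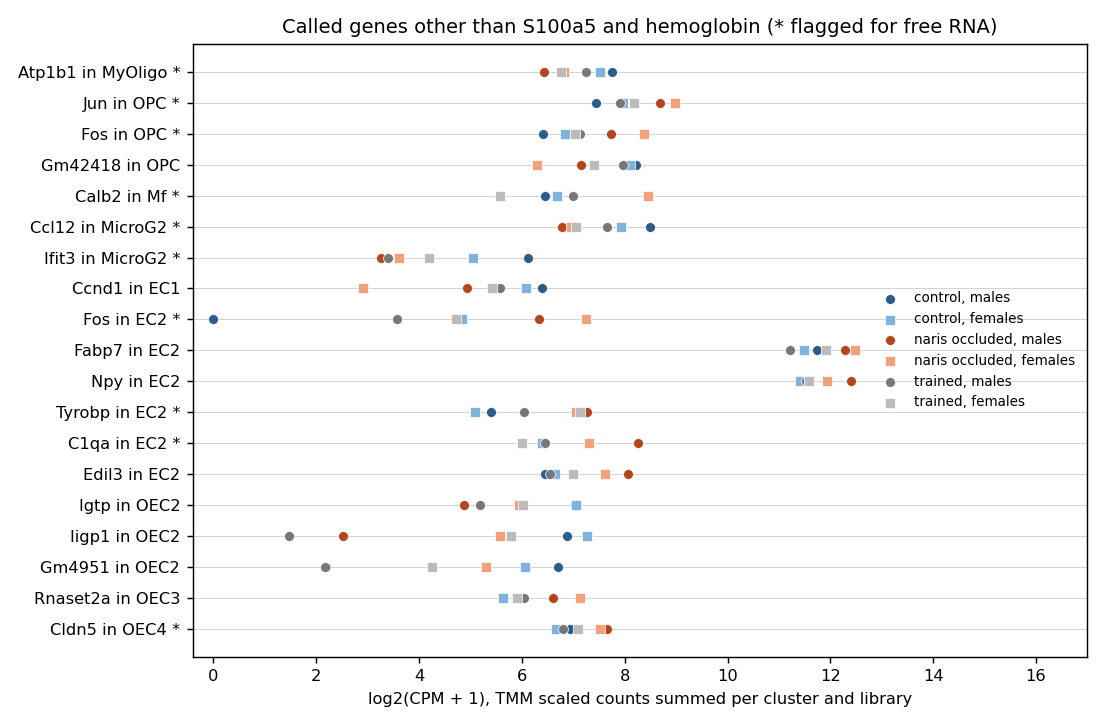
Levels of the 19 called genes other than S100a5 and hemoglobin, as log2(CPM + 1) of the counts summed per cluster and library (horizontal axis), with 1 point for each of the 6 libraries and an asterisk on genes flagged for free RNA. Igtp, Iigp1 and Gm4951 in OEC2 and Ccnd1 in EC1, all without a flag, are lower in both naris-occluded libraries than in both controls. Control and naris-occluded libraries did not overlap in 44 of all 47 calls.

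In the oligodendrocyte lineage the precursors (OPC, 4 calls, 0.0868% of the genes tested) had 2 of 7 tested immediate early genes called higher, both flagged for free RNA. Jun stood at 173.4 and 250.1 CPM in the controls and at 409.7 and 501.4 CPM in the occluded libraries (1.12 ± 0.22, adjusted p = 0.0326), and Fos at 84.2 and 113.7 against 211.2 and 330.6 CPM (1.48 ± 0.29, adjusted p = 0.0326). Both are subunits of the transcription factor AP-1, and they stood at 8.24% and 6.86% of their levels in MicroG1. Leaving out control 1 or occluded 2 ended the Jun call (0.86 and 0.95), and these or control 2 the Fos call (1.25, 1.09 and 1.69). Gm42418, a noncoding RNA gene that overlaps a ribosomal RNA locus, fell from 297.3 and 272.9 CPM to 140.8 and 77.1 CPM (-1.41 ± 0.29, adjusted p = 0.039). It was lower in 21 of 22 clusters, with an unadjusted p under 0.05 in 10 of them and a median of -0.43, and the OPC call was lost without control 1 (-1.35), control 2 (-1.47) or occluded 2 (-1.03). Gpr17, a receptor of precursors about to mature, stood at 985.9 and 1268 against 748.9 and 677.7 CPM (-0.66 ± 0.18, adjusted p = 0.494).

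In myelinating oligodendrocytes (MyOligo, 5 calls, 0.0759% of the genes tested) Atp1b1, a sodium pump subunit abundant in neurons, stood at 214.8 and 183.2 CPM against 85.1 and 111.5 CPM (-1.02 ± 0.20, adjusted p = 0.0396). It was flagged at 2.59% of its level in N15 and was lower at an unadjusted p under 0.05 in 7 of 22 clusters. Without control 1 the difference was -0.89 and without occluded 1 it was -0.84, neither called. The myelin genes showed no difference beyond their error, with 0 of 18 at an unadjusted p under 0.05 and a median of 0.04. Gatm, an enzyme of creatine synthesis, stood at 3074 and 2994 against 3171 and 3399 CPM.

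Astrocytes had no call other than S100a5. The reactive astrocyte list in Astro1, the largest cluster, had 4 of 9 tested members higher at an unadjusted p under 0.05 and a median of 0.27. Gfap, the intermediate filament of astrocytes, stood at 206.8 and 215.3 CPM in the controls, 280.2 and 363.5 CPM in the occluded libraries and 270.4 and 211.8 CPM in the trained ones (0.61 ± 0.13, adjusted p = 0.446). Over the 14 clusters where Gfap was tested, it was higher in 6 and lower in 1 at an unadjusted p under 0.05. C4b, a complement component, stood at 77.3 and 80.2 against 120.8 and 123.3 CPM, and Vim, a second filament gene, at 70.2 and 83.6 against 92.2 and 127.8 CPM. Without the cell with most UMIs in each library, C4b stood at 72.4 and 72.7 plain CPM in the controls. It stood at 112.9 and 118.1 in the occluded and 106.2 and 150.1 in the trained libraries. On the same scale Vim stood at 67.1 and 77.3 in the controls, 88.4 and 121.9 in the occluded and 100.6 and 73.7 in the trained libraries. Gfap stood at 198.5 and 193.0 in the controls, 244.0 and 346.9 in the occluded and 255.8 and 201.0 in the trained libraries. In Astro2 the same list had a median of -0.76 over 5 members. The list of astrocyte transporters and channels had a median of 0.01 over 55 tests. Its smallest p values were in Astro2, where Kcnj10, a potassium channel, stood at 322.6 and 225.8 against 196.8 and 83.0 CPM (-1.01 ± 0.34) and Aqp4, the water channel of astrocyte endfeet, at 392.4 and 297.1 against 246.0 and 129.2 CPM (-0.91 ± 0.31). The adjusted p of both was 0.459. For Aqp4, 35 of the 45 UMIs of control 1 and 16 of the 25 of control 2 were in 1 cell each, and without the cell with most UMIs in each library the plain CPM were 72.3 and 87.9 against 124.6 and 82.5, so that the groups overlapped.

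Mural and mesenchymal cells had no called gene other than S100a5. None of 32 tests of mural genes, such as Pdgfrb, a growth factor receptor of pericytes, had an unadjusted p under 0.05. Pdgfrb in Mural1 stood at 641.8 and 849.3 against 1017 and 834.5 CPM. Of 27 tests of matrix genes in mesenchymal cells 1 was higher and 1 lower at that threshold: Fn1, fibronectin, stood at 47.9 and 61.9 against 85.6 and 140.1 CPM and Lum, lumican, at 397.1 and 262.9 against 204.8 and 148.1 CPM, both in Mes1 with an adjusted p of 1.00. Of the 83 Lum UMIs of control 1, 51 were in 1 cell, and without the cell with most UMIs in each library the plain CPM of Lum overlapped, at 137.1 and 194.1 against 150.1 and 117.6.

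Some gene groups had more tests at an unadjusted p under 0.05 in 1 direction than in the other. Of 183 tests of immediate early genes, 39 were higher and 3 lower at an unadjusted p under 0.05, 3 were called, and the median was 0.22 against 0.00 for all genes. The median was 0.74 in OPC, 0.47 in Mono, 0.42 in Mf and 0.34 in EC1, and it was below 0 in OEC1 (-0.11) and OEC4 (-0.04). Summed, these genes did not overlap over all microglia, at 5533 and 6379 against 6745 and 7834 CPM, but overlapped within each microglial cluster, at 16620 and 15430 against 15780 and 18400 CPM in MicroG1, 2394 and 2694 against 2399 and 3157 CPM in MicroG2 and 441.2 and 363.4 against 353.1 and 562.1 CPM in MicroG3. Without occluded 2 the median turned negative in 7 of the 16 assigned clusters where it was positive (Astro1, Astro3, EC2, MicroG1, MicroG2, MicroG3 and OEC3). It fell to 0.09 in EC1, 0.28 in Mono and 0.36 in Mf and was 0.91 in OPC. Without control 1 it was 0.34 in Mono and 0.28 in Mf. Over the OECs the sums overlapped, at 1033 and 987.9 against 1013 and 1505 CPM, whereas both occluded libraries were higher in OEC2 (309.2 and 308.7 against 341.5 and 392.9 CPM) and OEC5 (6566 and 6874 against 6938 and 8556 CPM). The trained libraries stood at 1267 and 1478 CPM over the OECs and at 8677 and 11280 CPM in OEC5. They stood at 5261 and 11260 CPM in Mf and at 774.3 and 719 CPM in OPC. Over all nonneuronal cells the sums overlapped, at 1644 and 2017 against 1888 and 2500 CPM, with 1857 and 2633 CPM in the trained libraries. Metallothioneins, which bind zinc and copper, were higher in 8 of 36 tests and lower in none at that threshold, without a call, and their median was below 0 in OEC5 (-0.03), Mes1 (-0.08) and Mes2 (-0.03). Mt2 in OEC1 stood at 192.1 and 196.0 against 257.7 and 297.9 CPM, and the trained libraries were higher still at 369.9 and 299.3 CPM.

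The 13 genes of the mitochondrial genome were lower in 57 of 283 tests and higher in none at an unadjusted p under 0.05, with a positive difference in 46 of the 283, a median of -0.16 and no call. In MicroG3 the respiratory chain gene mt-Co1 stood at 29630 and 28940 CPM in the controls and at 21090 and 19430 CPM in the occluded libraries (-0.53 ± 0.11, adjusted p = 0.0918). The mitochondrial share per library, given above, moved with these values. Heat shock genes had a median of -0.07 over 158 tests, of which 1 was higher and 5 were lower at an unadjusted p under 0.05 and 56 had a positive difference. How far cell state at dissociation entered these groups was not tested.

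**Figure D5:**
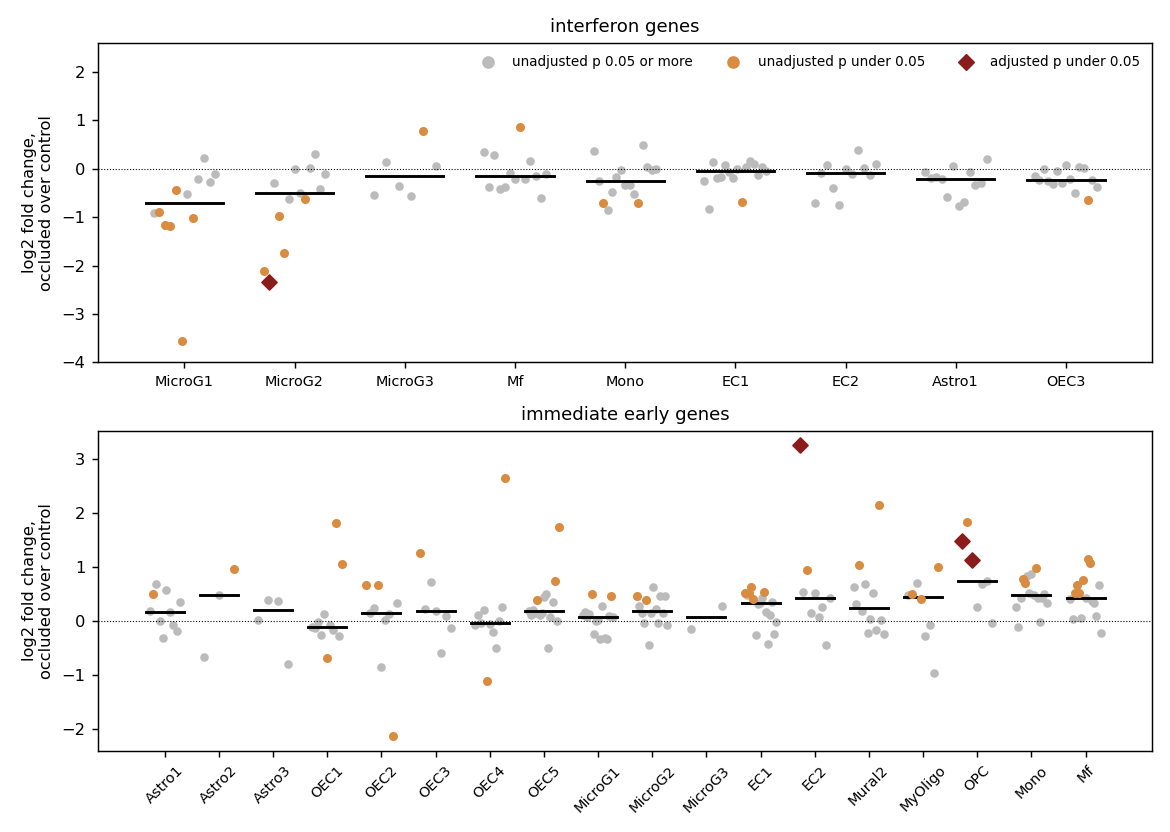
Log2 fold change (vertical axis, occluded over control) of each tested gene of the interferon list (top) and of the immediate early list (bottom) in each cluster to which the list was assigned; horizontal bars are medians, and colors mark an unadjusted p under 0.05 or an adjusted p under 0.05. Among the clusters plotted, interferon medians are lowest in MicroG1 (-0.71) and MicroG2 (-0.51), and the immediate early median is 0.74 in OPC.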

How the data were processed

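Single cells of olfactory bulbs from 6 libraries were measured with droplet 3′ RNA sequencing. The deposited table holds whole-number counts of UMIs for 18560 genes in 52549 barcodes, made by the authors with Cell Ranger 2.0.0 on mm10 per the labels, merged over runs and kept from 200 genes per cell. Clusters of 51426 barcodes come from the authors' annotation (Seurat 2.2.1, clustering after molecules per cell and mitochondrial genes were regressed out, doublets removed and indistinct clusters merged); no further doublet or free RNA correction was made. Nonneuronal libraries held 8600171 to 10555894 UMIs each; intervals cover counting error only. Each p-value of edgeR sets a difference between groups against the spread between libraries of pooled mice. Sex and pool vary together in that spread, and the spread between single mice is not covered.

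Counts were summed per cluster and library, filtered with filterByExpr and tested in R 4.3.3 with edgeR 4.0.16 (glmQLFit and glmQLFTest, TMM factors, all 6 libraries for the spread, Benjamini-Hochberg within a cluster, calls at adjusted p under 0.05). Cells per cluster were tested likewise with the nonneuronal cells of a library as the offset and adjustment over 22 clusters. The difference between a cluster and the other nonneuronal cells was an interaction with library as a block. The share of nonneuronal cells used an exact permutation test in scipy 1.17.1. The test scripts were checked on simulated counts. Alternatives were a replicate block, 4 libraries only, DESeq2 1.42.0, other normalization factors, other count filters, cells with at least 1000 UMIs, no mitochondrial and hemoglobin genes, 10% of the UMIs of a cluster subtracted at the profile of the library, adjustment over all clusters, and leaving out each library; the leave-one-out values of the nonneuronal share and the exclusion of cells with at least 20 hemoglobin UMIs were added after seeing the data.

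The members and gene lists were chosen with earlier results of these data known. Named genes were, per cluster, up to 2 called genes without the free RNA flag and 1 with it, smallest p first and the same direction in both sexes, then the genes called in most clusters, up to 3 members per list by p, and the free RNA transcripts. Other called genes, all genes named in EC2, OEC2 and OPC beyond that rule, and the lists of other cell types read in a cluster were chosen after their values were seen. The starts of the cell names and the library column of the annotation number the trained libraries in opposite ways, and the column was used. Xist and Y-linked transcripts were read only to check the sex of the pools, which matched the replicate number in all 6 libraries.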

Additional observations from a re-analysis of the deposited data

Results flagged for a closer look

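Of the called genes, 13 differed between control and naris-occluded libraries by another amount in their cluster than in all other nonneuronal cells of the same libraries (edgeR interaction with library as a block, adjusted p under 0.05). The difference between the 2 log2 fold changes was -2.09 for Ccnd1 in EC1. In EC2 it was 3.38 for Hbb-bs, 3.58 for Hba-a2, 3.51 for Hba-a1, 2.98 for Fos, 2.01 for Tyrobp, 1.51 for C1qa, 1.24 for Edil3 and 0.58 for Fabp7. In OEC2 it was -1.49 for Igtp, -2.38 for Iigp1 and -1.97 for Gm4951. In OEC4 it was 0.77 for Cldn5. For each of these 13 genes, the other nonneuronal cells include the outside cluster with the highest level. That cluster was OPC for Ccnd1, EC1 for Igtp and Mf for Iigp1 and Gm4951. Only Igtp was higher in its own cluster than in the outside one. A difference in free RNA therefore need not drop out of these tests. In EC2, 1 cell of occluded 2 held 567 of its 693 hemoglobin UMIs; without the cell with most hemoglobin UMIs in each library, hemoglobin stood at 232.2 and 80.85 CPM in the controls and 293.1 and 551.6 CPM in the occluded libraries. On means over the 4 libraries, Igtp, Iigp1 and Gm4951 are among the genes that set OEC2 apart from the other OECs, but in occluded 1 the levels were close.

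For 3 called genes the pools of males and females differed in opposite directions, and this difference between the sexes was not tested. Hba-a1 in MyOligo had a log2 ratio of -0.59 in males and 5.22 in females, Hba-a2 in MyOligo -0.57 and 6.47, and Hbb-bs in MicroG2 -0.10 and 4.08.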

How the results depend on the processing

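With 2 libraries a group, the counts of calls moved with the settings. The 47 calls became 83 with a replicate block (all 47 among them), 4 with DESeq2, 158 without a count filter, 21 with a minimum count of 20, 28 after subtracting 10% free RNA and 80 to 147 on leaving out 1 library. S100a5 was called in 20 clusters, and in 3, 12 and 12 with DESeq2, the minimum count of 20 and the subtraction. The 9 calls without the free RNA flag became 25 with the replicate block, 27 with 4 libraries only, 0 with DESeq2 (where the 4 calls were flagged), 70 without a filter, 3 with the minimum count of 20, 4 after the subtraction, 5 with adjustment over all clusters and 24 to 73 on leaving out 1 library. The 13 calls that departed from the other nonneuronal cells became 20 with 4 libraries only. No cluster share passed under the alternatives run, except that a chi-square test on pooled cells, which takes cells as replicates, called 7. The same replicate numbers correlated at 0.268 between control and occluded, 0.285 between control and trained and 0.079 between occluded and trained libraries over 11382 genes. The number marks the sex of the pool, and since not every pair of groups correlated above 0.1, the block is given only here. These values use the library column of the annotation for the trained libraries; the start of the cell names would turn the sign of both correlations with them.

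Directions reversed for values that were not called. With 1 library left out, the log2 share ratio ran from -0.908 to 0.800 for red blood cells, -0.039 to 0.345 for Mf, -0.043 to 0.462 for MicroG1, -0.409 to 0.179 for Mural2, -0.002 to 0.188 for Astro1, -0.342 to 0.084 for OEC2 and -0.200 to 0.004 for OEC3. It was 0.010 for Mural2 with all annotated cells as the offset and -0.007 for Astro1 in cells with at least 1000 UMIs. Gene values ran from -0.002 to 0.533 for Myl9 in Mural1, -0.082 to 0.266 for Cldn11 in MyOligo and -0.048 to 0.245 for Mal in MyOligo, and Alas2 in red blood cells was 0.022 without normalization factors. The cause of these moves was not tested. Depth limits the shallow clusters most: 266 genes could be tested in red blood cells against 9711 in OEC4.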
